A study of Mus musculus with 8 samples.

Results

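A set of 9 imprinted genes that are abundant in embryonic mesenchyme was followed in the developing mouse stomach: H19, Meg3, Dlk1, Grb10, Plagl1, Peg3, Mest, Ndn and Peg10. They were chosen by name, with earlier results of these data known. Every assembled locus that carries one of these names, alone or joined with others, was taken, which gave 10 loci of the 26747 in the deposited table. Mest accounts for 2 of them. All 10 passed the filter on low counts. RNA was sequenced from whole stomachs at E13.5, in 4 YAP5SA libraries (Nkx3.2Cre;R26-YAP5SA) and 4 wild type libraries. YAP5SA is a form of the transcriptional co-activator YAP in which the serines phosphorylated by the Hippo pathway kinases are replaced by alanine, and here it is expressed from the Rosa26 locus in cells that carry Cre under Nkx3.2 control. Nkx3.2 is a gene of the visceral mesenchyme, so stomach cells outside that lineage need not carry the active protein. Whether wild type embryos carried either allele alone is not stated, nor is whether a library came from 1 embryo or from a pool. The p-values below therefore measure the spread between these libraries, which may be technical.

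Imprinted genes are transcribed mainly from the chromosome inherited from 1 parent, and they lie in clusters under a control region that is methylated on 1 parental copy. Genes of 1 cluster can be expressed from opposite parents. Many act on fetal growth. Paternally expressed genes such as Igf2, Dlk1, Mest and Peg3 are often linked to more growth or to progenitor states, and maternally expressed genes such as H19, Grb10, Cdkn1c and Igf2r often to less. Several are abundant in fetal tissues and decline together after birth, and Plagl1, a zinc-finger transcription factor, is known to regulate others of this network, H19 and Igf2 among them. The counts do not separate the parental copies.

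Of these genes, 3 hold microRNA hairpins within the locus that was counted, so they are printed here as products of the same transcripts. Mir675 lies in H19 with a hairpin of 84 bases, Mir335 in Mest with 98 bases, and Mir770 with 94 bases in the Meg3 locus together with Mir1906-1. The 7 mature sequences come from RefSeq on GRCm38.p6, and capitals mark the seed, bases 2 to 8. No seed was shared among the 7. Mature microRNAs were not measured in these libraries, and the values below are for the long host transcripts.
mmu-miR-675-5p: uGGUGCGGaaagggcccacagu
mmu-miR-675-3p: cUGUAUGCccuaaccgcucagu
mmu-miR-335-5p: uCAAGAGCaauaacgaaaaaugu
mmu-miR-335-3p: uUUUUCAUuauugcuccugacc
mmu-miR-770-5p: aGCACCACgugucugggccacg
mmu-miR-770-3p: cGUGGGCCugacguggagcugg
mmu-miR-1906: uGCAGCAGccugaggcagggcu

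Promoter windows from 250 bases before to 50 bases after each start site were available from RefSeq (GRCm38.p6) for 7 of the 9 genes, in 11 windows. They held a median of 13 CpG dinucleotides (1 to 45), beside a median of 7 over all 32851 windows of the table. TEAD factors, the DNA-binding partners of YAP, recognise GGAATG, which was searched on both strands, where it reads CATTCC. The letters were found in 1 of the 11 windows, that of Peg3, and in 14.7% of all windows. The Peg3 window is printed because it is the only one of these windows with the letters and because it overlaps the window of Usp29. The start sites of Peg3 and Usp29 are 164 bases apart on opposite strands, their windows share 263 bases, and the match in both is the same 6 bases. The window of Zim1, the next gene of that domain, is printed beside it, as Zim1 had the smallest adjusted p of the domain below. Capitals mark the match. The letters were looked for in 14 windows of 8 other imprinted genes too, and 6 of these windows held them: 1 of 1 for Usp29, 1 of 1 for Zim1, 1 of 2 for Calcr and 3 of 4 for Igf2. They were in none of the 3 windows of Slc38a4, and not in the single windows of Igf2r, Magel2 and Phlda2. These 8 genes were a selection, and all but Igf2 were called in the test below. Their share of windows with the letters therefore cannot be compared with that of all windows. A match is a description of the letters, and binding was not measured.
Peg3 promoter, chr7:6730370-6730669, minus strand: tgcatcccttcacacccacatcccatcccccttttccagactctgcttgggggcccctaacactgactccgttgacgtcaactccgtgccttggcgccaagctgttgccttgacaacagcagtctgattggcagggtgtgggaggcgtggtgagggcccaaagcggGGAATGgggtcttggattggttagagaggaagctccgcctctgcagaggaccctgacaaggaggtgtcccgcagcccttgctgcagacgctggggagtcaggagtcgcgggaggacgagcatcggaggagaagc
Zim1 promoter, chr7:6696383-6696682, minus strand: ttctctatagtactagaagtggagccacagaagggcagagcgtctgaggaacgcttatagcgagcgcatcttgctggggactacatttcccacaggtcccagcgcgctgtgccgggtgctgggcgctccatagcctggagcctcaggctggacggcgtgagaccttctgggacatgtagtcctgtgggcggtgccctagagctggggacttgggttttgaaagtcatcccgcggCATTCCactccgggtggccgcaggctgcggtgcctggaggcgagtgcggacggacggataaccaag

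The libraries held 7152515 to 8353237 fragments on named loci in YAP5SA and 6204927 to 6783550 fragments in wild type, so the YAP5SA libraries were on average 16.9% deeper. Levels are fragments scaled to library size (CPM), mean ± SD of 4 libraries. Differences are log2 fold changes of YAP5SA over wild type with their standard error (SE), and adjusted p-values come from edgeR's quasi-likelihood test over all 14574 tested loci. Over those loci, 18.9% were called at an adjusted p under 0.05, 9.06% higher and 9.85% lower in YAP5SA, and the CPM ranges of the genotypes did not overlap at 22.7%.

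The summed share of the 10 loci overlapped between genotypes, and the changes of single loci were small. They took 0.367%, 0.406%, 0.402% and 0.405% of the named fragments in the YAP5SA libraries, against 0.404%, 0.393%, 0.389% and 0.398% in the wild type libraries. The ranges overlapped, and the first YAP5SA library, the deepest, was the lowest of the 8. No locus was called higher, against 9.06% of all loci, and 2 of 10 were called lower (20%), H19 and Ndn. The same 2 were the loci whose CPM ranges did not overlap between genotypes, beside 22.7% of all loci. The log2 fold changes of the 10 ran between -0.20 and 0.20 with a median of 0.01, and the median over all tested loci was -0.01. The count of called loci was 1, H19, without YAP5SA replicate 2 or wild type replicate 2 or 3. Without YAP5SA replicate 1 it was also 1, but that locus was Peg10, called higher (log2 fold change 0.26, adjusted p = 0.026). The count was 0 without YAP5SA replicate 3 or 4 or wild type replicate 1 or 4. It was 1, H19, with the replicate number as a block, with DESeq2, with RLE factors and without the filter on low counts. It stayed at 2 with upper-quartile factors and limma-voom. On the FPKM scale it was 3, with Dlk1 added as higher, or 2 without the filter on low FPKM, H19 and Dlk1.

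**Figure D1:**
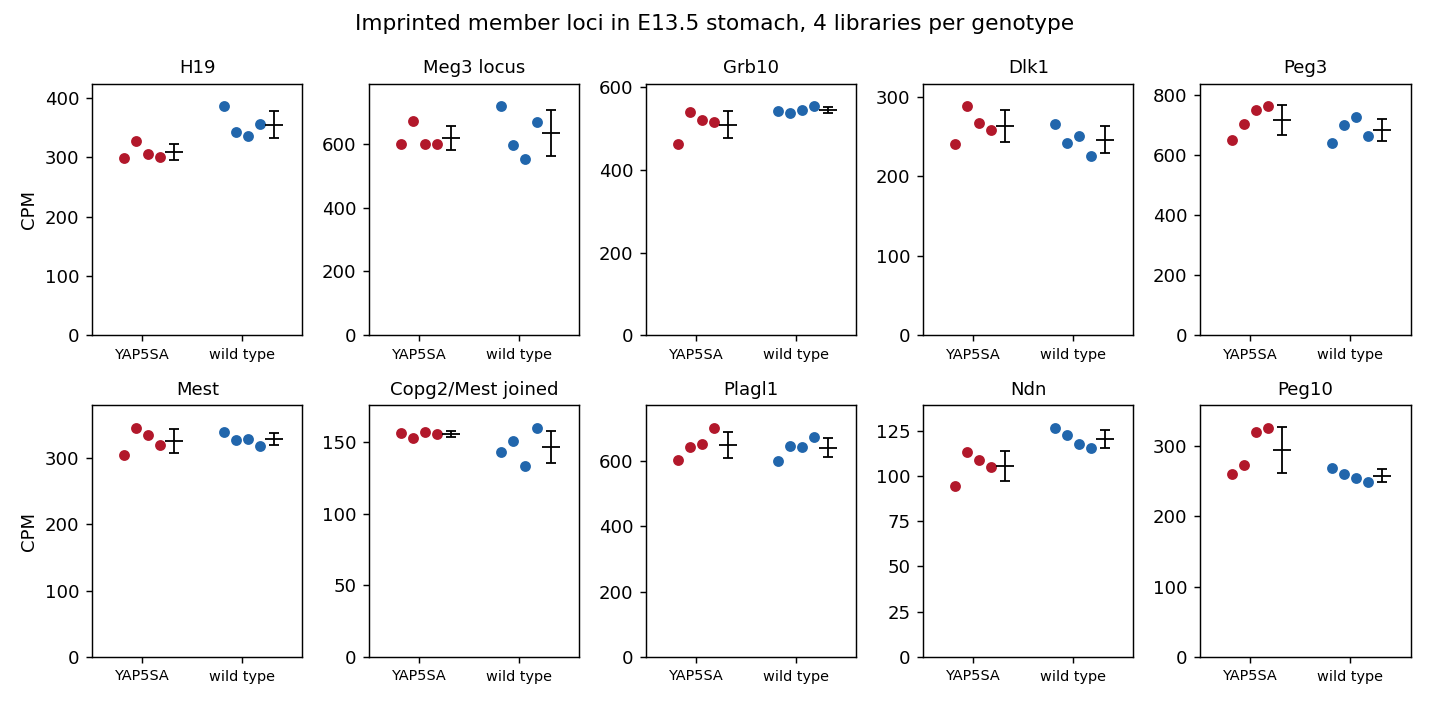
CPM of the 10 loci in each library (points), YAP5SA on the left and wild type on the right of each panel, with the mean and SD of 4 libraries beside the points; each vertical axis starts at 0. The points overlap between genotypes in 8 panels, and H19 and Ndn are the 2 panels in which every YAP5SA library lies below every wild type library.

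H19 is a maternally expressed long noncoding RNA that shares enhancers with Igf2 and is the host of miR-675. Its locus is chr7:142575525-142578216 on the minus strand of mm10, with 2460 exonic bases. It had 299, 329, 306 and 301 CPM in the YAP5SA libraries, against 386, 343, 336 and 357 CPM in the wild type libraries. All 4 YAP5SA values lay below all 4 wild type values, with YAP5SA replicate 2 nearest to wild type replicate 3. The mean was 309 ± 13.6 CPM in YAP5SA and 356 ± 22.1 CPM in wild type, a log2 fold change of -0.20 ± 0.05 (SE), or 0.87-fold (adjusted p = 0.023). In whole tissue, fewer cells that make a transcript and less of it per cell cannot be told apart, which holds for every gene below. H19 no longer passed without YAP5SA replicate 1 (adjusted p = 0.052), YAP5SA replicate 3 (0.063), YAP5SA replicate 4 (0.078), wild type replicate 1 (0.057) or wild type replicate 4 (0.052).

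The fragments behind that value differed little. Unscaled, H19 had 2501, 2350, 2288 and 2269 fragments in YAP5SA, against 2396, 2327, 2273 and 2271 fragments in wild type, and these ranges overlapped. The YAP5SA mean was 1.52% higher than the wild type mean, in libraries 16.9% deeper. H19 was also densely covered, with 0.949 fragments per exonic base of a library, beside a median of 0.0816 over all tested loci with a known length. With library-size factors computed within 6 bins of that density, a setting chosen after seeing the data, the H19 log2 fold change was -0.12 (adjusted p = 0.084). With density taken per base of the length that the deposited FPKM imply, it was -0.14 (adjusted p = 0.052).

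**Figure D2:**
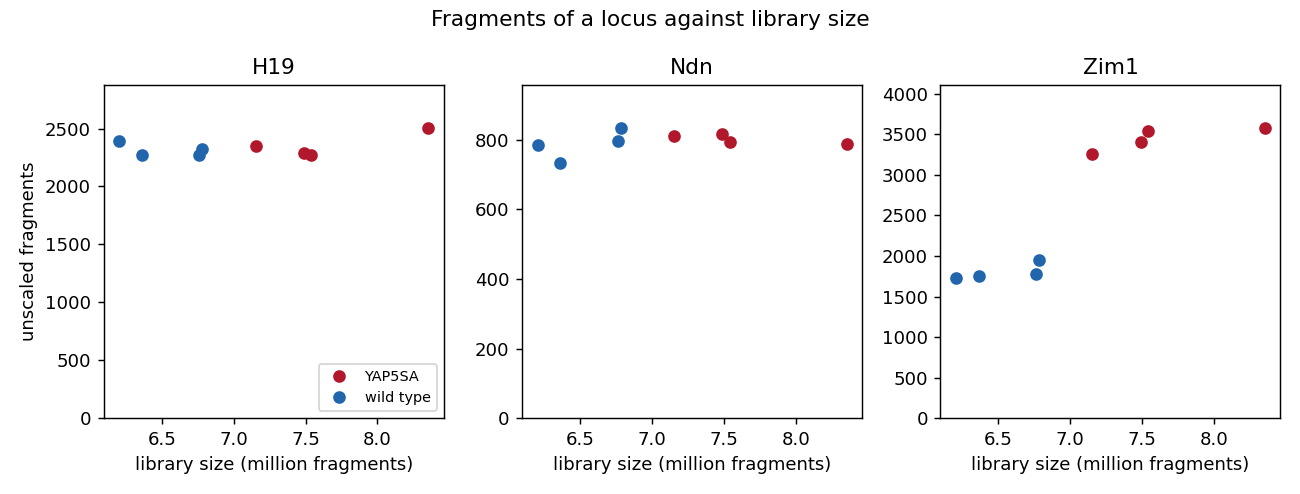
Unscaled fragments of H19, Ndn and Zim1 (vertical axes, from 0) against library size (fragments on named loci), with YAP5SA and wild type libraries in different colours. H19 and Ndn sit at about the same number of fragments in all 8 libraries, whereas Zim1 has 91.3% more fragments on average in YAP5SA.

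Igf2, the fetal growth factor on the other side of the H19 domain, moved in the same direction without passing. It had 526 ± 32.4 CPM in YAP5SA and 582 ± 18.4 CPM in wild type, a log2 fold change of -0.14 ± 0.06 (adjusted p = 0.1), with ranges that did not overlap. At 0.682 fragments per exonic base it was densely covered too. The log2 ratio of H19 to Igf2 FPKM was 0.10 ± 0.05 in YAP5SA and 0.15 ± 0.05 in wild type. That difference of -0.05 did not pass an exact two-sided permutation test over all 70 arrangements of the libraries (p = 0.2, adjusted p = 0.3 over 3 ratios; the smallest p possible is 0.029). Within same-numbered pairs the ratio was lower in YAP5SA in 4 of 4, and the paired exact sign-flip test gave an adjusted p of 0.19, where 4 pairs allow no p below 0.125. Th, the catecholamine enzyme gene beside the domain, had a log2 fold change of -0.95 ± 0.32 (adjusted p = 0.062), and Ins2 was not tested for low counts.

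Ndn encodes necdin, a paternally expressed MAGE-family protein that restrains proliferation and is abundant in neurons and mesenchymal progenitors. It is an intronless gene at chr7:62348277-62349927 on the plus strand. It had 94.2, 113, 109 and 105 CPM in the YAP5SA libraries, against 126, 123, 118 and 115 CPM in the wild type libraries. The ranges did not overlap, but the highest YAP5SA library lay close to the lowest wild type library, and YAP5SA replicate 1 was well below the other 3. The log2 fold change was -0.19 ± 0.06, or 0.876-fold (adjusted p = 0.048). It did not pass with the replicate number as a block (adjusted p = 0.059), nor without any of the 8 libraries (adjusted p = 0.059 to 0.13), nor with DESeq2 (adjusted p = 0.05 after rounding) or RLE factors (0.054), nor without the filter on low counts (0.071) or on low FPKM (0.065). With factors within density bins it was -0.11 and did not pass (adjusted p = 0.088), and with density by the FPKM-implied length it was -0.13 and passed (adjusted p = 0.046). Unscaled, Ndn had 787 to 817 fragments in YAP5SA and 734 to 833 fragments in wild type.

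Magel2, the neighbouring paternally expressed MAGE gene, fell too. It had 8.59 ± 0.17 CPM in YAP5SA and 15.5 ± 3.62 CPM in wild type, a log2 fold change of -0.85 ± 0.18 (adjusted p = 0.0086). The spread was small in YAP5SA (8.41 to 8.81 CPM) and wide in wild type (11.2 to 18.7 CPM), with no overlap. The joined Snrpn,Snurf locus, whose genes encode a splicing protein and a short upstream protein, had a log2 fold change of -0.32 ± 0.09 (adjusted p = 0.03), a call that was lost without any 1 library except wild type replicate 2 (adjusted p = 0.052 to 0.093). The other genes of the domain did not pass: Mkrn3 had -0.08 ± 0.14 (adjusted p = 0.74), Peg12 0.22 ± 0.08 (0.076) and Ube3a 0.14 ± 0.05 (0.081). Enteric neuron markers moved alongside: 8 of 9 tested were called lower, beside 9.85% of all loci. Their summed levels were 262 to 336 CPM in YAP5SA and 509 to 594 CPM in wild type. The part of these markers in the Ndn and Magel2 values was not tested.

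The Dlk1-Dio3 domain on chromosome 12 holds 2 of the 9 genes. Dlk1 (chr12:109452798-109463336, plus strand) encodes a paternally expressed transmembrane relative of the Notch ligands that holds back differentiation. It had 241, 288, 267 and 258 CPM in the YAP5SA libraries, against 266, 243, 251 and 226 CPM in the wild type libraries. The ranges overlapped and the log2 fold change was 0.10 ± 0.06 (adjusted p = 0.33; 95% interval -0.03 to 0.23). On the authors' FPKM scale the same gene separated. It had 84.7 ± 6.22 FPKM in YAP5SA and 71.2 ± 4.71 FPKM in wild type, and limma on log2(FPKM + 1) gave 0.25 (adjusted p = 0.02). From fragments with density bins by the FPKM-implied length it was 0.16 (adjusted p = 0.039). The call on Dlk1 thus depended on the unit and the scaling, and the cause was not tested.

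Meg3 is the maternally expressed long noncoding RNA of that domain. Its locus (chr12:109540996-109571729, plus strand) is joined in the table with Mir1906-1 and Mir770. It had 601, 674, 601 and 600.0 CPM in the YAP5SA libraries, against 718, 598, 552 and 668 CPM in the wild type libraries. The wild type libraries enclosed the YAP5SA range, and the log2 fold change was -0.03 ± 0.08 (adjusted p = 0.84; 95% interval -0.18 to 0.12).

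The FPKM of the Meg3 locus did not follow its fragments. The authors' values were 90.8, 190, 96.0 and 93.4 FPKM in YAP5SA, against 578, 458, 87.5 and 102 FPKM in wild type, while the fragments ran only between 4504 and 5022 in YAP5SA and between 3735 and 4454 in wild type. The 2 highest were wild type replicates 1 and 2. The log2 ratio of Meg3 to Dlk1 was 0.40 ± 0.43 in YAP5SA and 1.63 ± 1.37 in wild type on the FPKM scale, a difference of -1.24 that did not pass the exact permutation test (p = 0.17, adjusted p = 0.3). It was lower in 4 of 4 same-numbered pairs (paired exact sign-flip test, adjusted p = 0.19). From fragments the difference was -0.13 (adjusted p = 0.31).

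**Figure D3:**
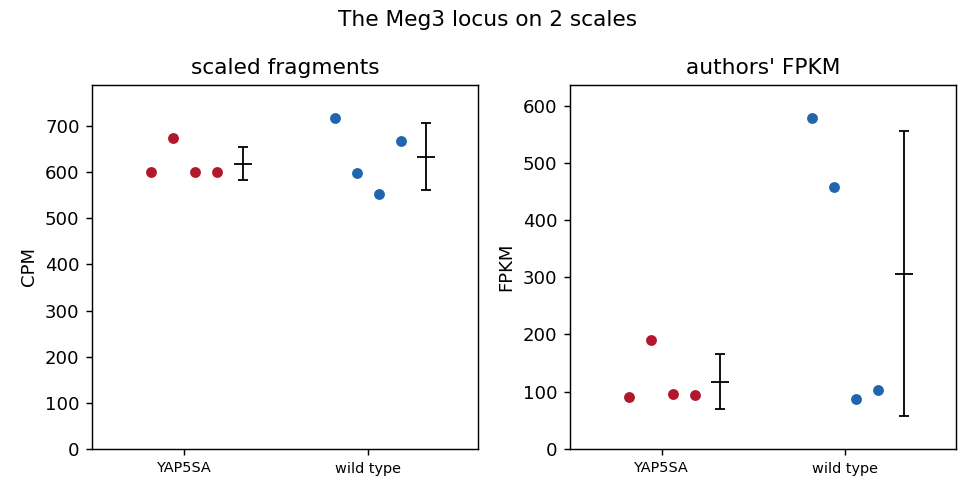
The Meg3 locus in each library as CPM (left panel) and as the authors' FPKM (right panel), with points for libraries, mean and SD of 4 beside them, and axes from 0. CPM lies between 552 and 718 in all 8 libraries, while FPKM reaches 578 and 458 in 2 wild type libraries and is at most 190 in the other 6.

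Further along the domain, the joined locus that contains Mirg, the host of a large microRNA cluster, was higher at 76.3 ± 5.91 CPM in YAP5SA and 55.3 ± 11.2 CPM in wild type. Its log2 fold change of 0.47 ± 0.12 (adjusted p = 0.022) was lost without YAP5SA replicate 1 (0.052), wild type replicate 2 (0.055) or wild type replicate 3 (0.054), and on the FPKM scale (adjusted p = 0.85 to 0.86). A second locus of Mirg had 0.59 ± 0.22 (0.092). The joined Rian locus, which hosts small nucleolar RNAs, had 0.10 ± 0.07 (0.33), and Rtl1, a retrotransposon-derived gene needed in the placenta, 0.37 ± 0.17 (0.16). Dio3, which inactivates thyroid hormone, had -0.27 ± 0.22 (0.45), and Begain, upstream of Dlk1, -0.11 ± 0.09 (0.48).

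Grb10 is an adaptor that damps insulin and IGF receptor signalling and is maternally expressed in most fetal tissues. At chr11:11930499-12037420 (minus strand) it had 463, 539, 521 and 517 CPM in the YAP5SA libraries, against 544, 537, 546 and 554 CPM in the wild type libraries. YAP5SA replicate 1 was the lowest, replicate 2 lay within the wild type range, and the log2 fold change was -0.09 ± 0.06 (adjusted p = 0.3; 95% interval -0.20 to 0.02). Without YAP5SA replicate 1 it was -0.04 (adjusted p = 0.57). Its neighbour Ddc, which encodes the aromatic amino acid decarboxylase, rose, with 72.9 ± 3.53 CPM in YAP5SA and 58.2 ± 5.26 CPM in wild type (log2 fold change 0.33 ± 0.07, adjusted p = 0.01). Cobl, an actin nucleator on the other side, had 0.43 ± 0.19 (0.16).

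Plagl1 (chr10:13090691-13131695, plus strand), the transcription factor of the network, did not pass. It had 603, 644, 653 and 701 CPM in the YAP5SA libraries, against 602, 647, 643 and 674 CPM in the wild type libraries. The ranges nearly coincided, and the log2 fold change was 0.02 ± 0.06 (adjusted p = 0.86; 95% interval -0.10 to 0.15).

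Mest, a paternally expressed gene for an enzyme of the hydrolase fold and a mark of fetal mesenchyme, did not pass either. Its main locus (chr6:30733506-30896785, plus strand) had 304, 345, 334 and 320.2 CPM in the YAP5SA libraries, against 340, 327, 328 and 318 CPM in the wild type libraries, and the wild type range lay inside that of YAP5SA. The log2 fold change was -0.01 ± 0.05 (adjusted p = 0.95; 95% interval -0.11 to 0.09). The locus joined as Copg2,Mest runs over the same coordinates on the minus strand, and since the use of strand in the counting is not given, fragments of Mest and Copg2, a coat protein gene, cannot be told apart there. It had 153 to 158 CPM in YAP5SA and 133 to 160 CPM in wild type, a log2 fold change of 0.09 ± 0.06 (adjusted p = 0.33), with the opposite sign on the FPKM scale (-0.064). Klf14, a maternally expressed zinc-finger gene next to them, had -0.08 ± 0.23 (0.86).

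Peg10 is a retrotransposon-derived gene needed for the placenta. At chr6:4747306-4760517 (plus strand) it had 260.3, 273, 320.3 and 326 CPM in the YAP5SA libraries, against 269, 261, 254 and 249 CPM in the wild type libraries. YAP5SA replicates 2, 3 and 4 lay above every wild type library, replicate 2 only just, and replicate 1 lay among them. The log2 fold change of 0.20 ± 0.08 did not pass (adjusted p = 0.11), although it did without YAP5SA replicate 1 (0.26, adjusted p = 0.026).

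Sgce, the sarcoglycan gene that shares the Peg10 control region, had 61.1 ± 2.61 CPM in YAP5SA and 60.3 ± 2.84 CPM in wild type (log2 fold change 0.02 ± 0.05, adjusted p = 0.85). The log2 ratio of Peg10 to Sgce FPKM was 0.15 ± 0.20 in YAP5SA and -0.02 ± 0.03 in wild type (exact permutation p = 0.31, adjusted p = 0.31), and it was lower in 1 of 4 same-numbered pairs (paired exact sign-flip test, adjusted p = 0.25). Calcr, the calcitonin receptor gene at the edge of the domain, rose most in the domain. Its main locus had 40.1, 31.0, 24.7 and 24.8 CPM in the YAP5SA libraries, against 2.10 to 6.21 CPM in the wild type libraries, a log2 fold change of 2.88 ± 0.28 (adjusted p = 0.00015). Its second, sparse locus had 3.01 ± 0.52 (0.003; 0.054 with limma on log2(FPKM + 0.1)). Pon2, a paraoxonase, had -0.33 ± 0.10 (0.036), a call lost without YAP5SA replicate 2, 3 or 4 or wild type replicate 1, 2 or 4 (adjusted p = 0.07 to 0.1) and without the filter (0.051). Ppp1r9a (-0.24, adjusted p = 0.12), Asb4 (0.05, 0.82), Pon3 (-0.13, 0.5) and Casd1 (-0.06, 0.37) did not pass.

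Peg3 encodes a large zinc-finger protein and is paternally expressed. At chr7:6703894-6730419 (minus strand) it had 651, 702, 751 and 761 CPM in the YAP5SA libraries, against 641, 698, 727 and 664 CPM in the wild type libraries. The ranges overlapped and the log2 fold change was 0.07 ± 0.07 (adjusted p = 0.54; 95% interval -0.06 to 0.21). Its domain neighbours rose. Zim1, a maternally expressed zinc-finger gene, had 428, 456, 455 and 469.5 CPM in the YAP5SA libraries, against 279, 287, 263 and 275 CPM in the wild type libraries, with a wide gap between the genotypes. That is a log2 fold change of 0.72 ± 0.05 (adjusted p = 2.1e-05).

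Usp29, which starts beside Peg3 on the other strand and encodes a protein of the ubiquitin protease family, had 91.3 ± 8.07 CPM in YAP5SA and 54.1 ± 7.16 CPM in wild type (log2 fold change 0.76 ± 0.10, adjusted p = 0.0008). The Peg3 window printed above and the Usp29 window, which is not printed, are largely the same DNA. Yet the Peg3 interval ended at 0.21 and the Usp29 value was 0.76. The difference between the genes was not tested, nor was any part of the shared DNA in either value.

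**Figure D4:**
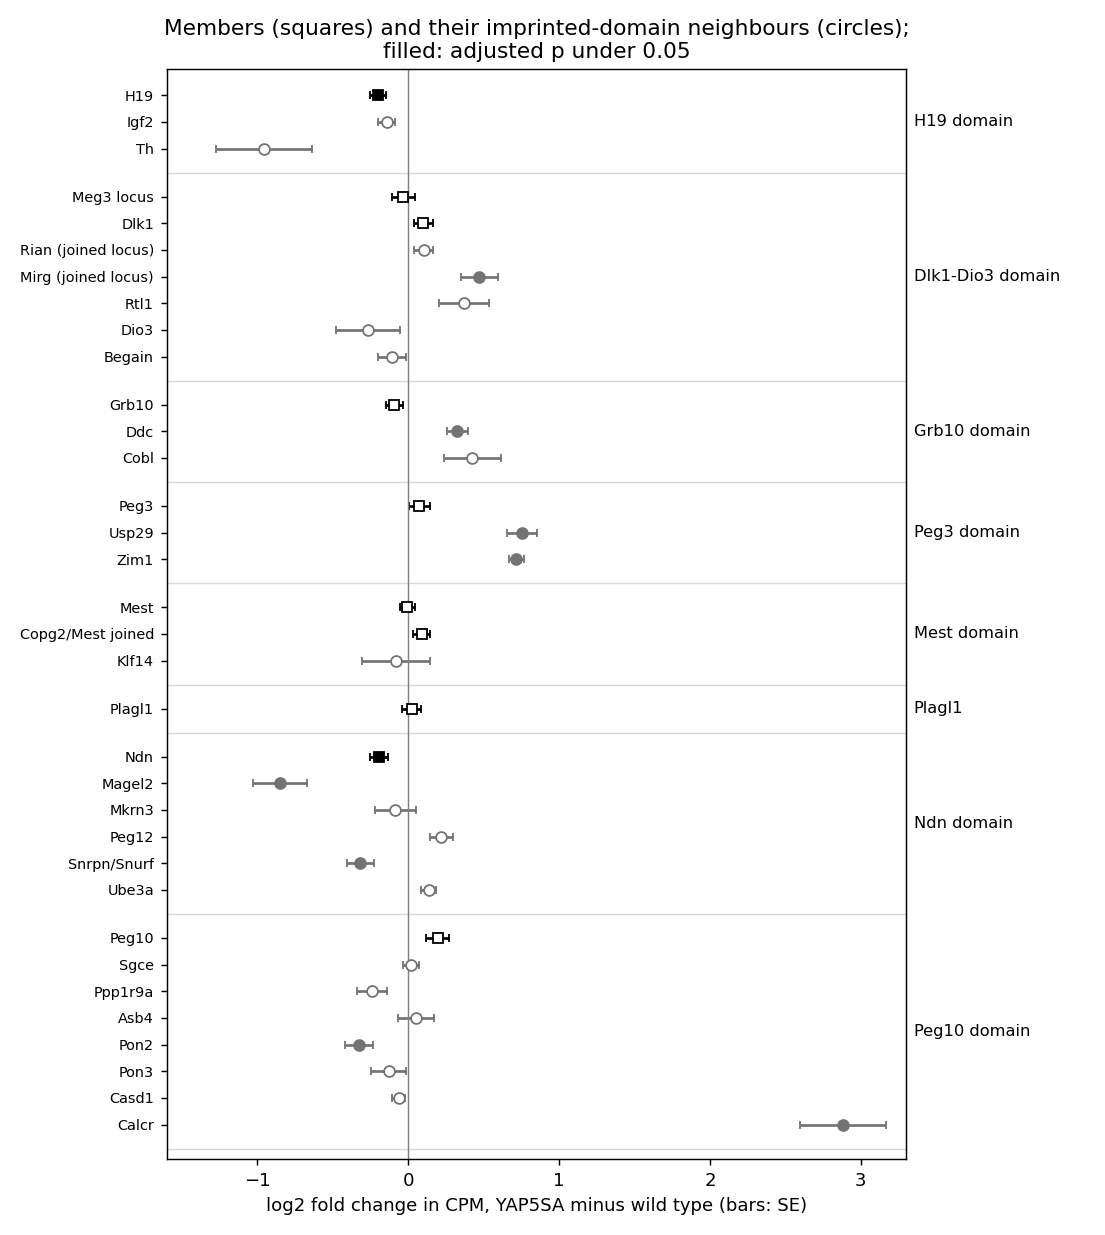
Log2 fold change of CPM (YAP5SA minus wild type, horizontal axis, bars are SE) for the 10 loci (squares) and the tested neighbours in their domains (circles, with the more abundant locus of Calcr and of Mirg), grouped by domain; filled symbols have an adjusted p under 0.05. All squares lie between -0.20 and 0.20, whereas Zim1 and Usp29 stand at 0.72 and 0.76, Magel2 at -0.85 and Calcr at 2.88.

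The position of the 10 loci on the scale of coverage bears on how their small differences read. Their median was 0.394 fragments per exonic base (0.141 to 0.949), beside 0.0816 over all tested loci. Exonic bases are the union of annotated exons inside the locus, which can exceed the transcripts present. Per base of the length implied by FPKM, the 10 ran between 0.255 for Copg2,Mest and 1.5 for the Meg3 locus, with H19 at 1.05. The Meg3 value rests on an implied length of 2955 bases, taken from its uneven FPKM, beside 18089 exonic bases. Within genotypes, the slope of log fragments on log library size, which is 1 where fragments grow in proportion to depth, had a median of 1.71 for loci under 0.05 fragments per base, 1.1 from 0.05 to 0.1, 0.81 from 0.1 to 0.2, 0.56 from 0.2 to 0.3, 0.44 from 0.3 to 0.4 and 0.37 above 0.4. Over the narrow depth range within each genotype, densely covered loci thus gained fewer fragments than depth would give. In the same order the median log2 fold change of the bins was -0.04, 0.02, 0.01, -0.01, -0.05 and -0.08. H19, Ndn, Grb10, Mest and Plagl1 lie in the densest bin of 277 loci, where 11.9% were called lower and 1.81% higher. H19 had a slope of 0.26 and Ndn, at 0.481 fragments per base, of 0.10. All these slopes rest on few libraries of similar depth. YAP5SA replicate 1 stood apart with 8353237 fragments, against 7152515 to 7540157 in the other YAP5SA libraries. Wild type spanned only 6204927 to 6783550. Slopes without YAP5SA replicate 1 were not tested, so depth and the composition of that library cannot be told apart in them. Every YAP5SA library was deeper than every wild type library, so depth and genotype cannot be told apart for differences of this size.

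**Figure D5:**
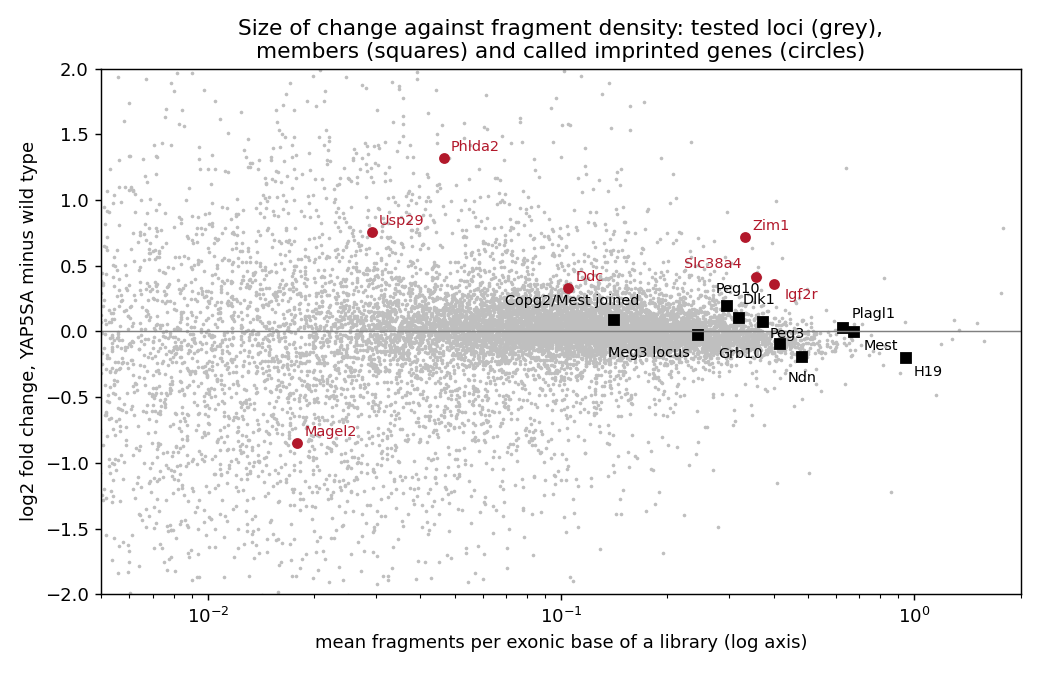
Log2 fold change (vertical axis, YAP5SA minus wild type) against mean fragments per exonic base of a library (horizontal log axis) for 12530 tested loci with a known length (grey), the 10 loci (squares) and 7 called imprinted genes (circles); a further 741 loci lie beyond the axes. The squares sit at the densely covered end, H19 furthest right among them at 0.949, and close to the zero line.

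By FPKM, which is per length, the levels ran in YAP5SA as H19 (139 ± 4.75), the Meg3 locus (117.5 ± 48.3), Mest (115 ± 6.89), Grb10 (102.5 ± 6.35), Plagl1 (95.8 ± 7.95), Peg3 (86.4 ± 7.15), Dlk1 (84.7 ± 6.22), Ndn (72.0 ± 5.33), Peg10 (45.2 ± 5.37) and Copg2,Mest (35.1 ± 1.14). Neighbours in that order had overlapping ranges except Dlk1 and Ndn, Ndn and Peg10, and Peg10 and Copg2,Mest. The place of the Meg3 locus rests on YAP5SA replicate 2, at 189.8 FPKM against 90.8 to 95.95 FPKM in the other YAP5SA libraries. In wild type the order was the Meg3 locus, H19, Mest, Grb10, Plagl1, Peg3, Ndn, Dlk1, Peg10 and Copg2,Mest, with overlap at Meg3 and H19, at Peg3 and Ndn, and at Peg10 and Copg2,Mest. The first place of the Meg3 locus there rests on wild type replicates 1 and 2 (578 and 458 FPKM). All 10 were high in wild type, from the 77.2 percentile of the tested loci for Copg2,Mest to the 99.9 percentile for the Meg3 locus, whose FPKM is uneven as described. The genes were chosen as abundant in embryonic mesenchyme, so their high level follows in part from that choice and is no separate result. The Copg2,Mest value may hold fragments of both genes.

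For each locus, the gene with the most similar course over the 8 libraries was found among 11437 candidates, by the root mean square difference of centred log2 CPM. These were Rplp1 for H19 (0.026), Uqcrh for Ndn (0.026), Clasrp for Meg3 (0.028), Plekhj1 for Dlk1 (0.026), Lmnb1 for Grb10 (0.015), Phrf1 for Plagl1 (0.03), Tut1 for Mest (0.02), Ercc6l for Copg2,Mest (0.026), Dhx8 for Peg3 (0.022) and Ksr1 for Peg10 (0.05). A typical candidate differed by 0.13 to 0.183. None of the 10 nearest genes was itself called, the smallest adjusted p being 0.12 for Ksr1. As each was picked for its course over the same 8 libraries, its change had to lie near that of its locus. Rplp1 had a log2 fold change of -0.187 and Uqcrh of -0.181, near those of H19 and Ndn.

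Beyond the 9, a list of 60 further imprinted genes had 55 tested loci, of which 13 were called higher and 5 lower in YAP5SA. That is 32.7%, beside 18.9% of all tested loci, for a list chosen with earlier results of these data known. Their median log2 fold change was 0.00, and their median coverage of 0.0674 fragments per base was below that of the 10 loci. Without YAP5SA replicate 3, 11 of these loci were called. Zfp264 had no locus, and Slc22a2, Kcnk9, Rasgrf1 and Ins2 were too low to test.

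Genes of growth and transport were among those that rose. Slc38a4, a paternally expressed amino acid transporter of placenta and liver, had 242 ± 13.4 CPM in YAP5SA and 182 ± 9.61 CPM in wild type (log2 fold change 0.41 ± 0.06, adjusted p = 0.00074). Phlda2, a maternally expressed gene that limits placental growth, had 9.41 ± 1.34 CPM in YAP5SA and 3.78 ± 1.17 CPM in wild type (1.32 ± 0.26, adjusted p = 0.0054). Impact, an inhibitor of the amino acid sensor GCN2, had 95.5 ± 2.77 CPM in YAP5SA and 78.5 ± 2.75 CPM in wild type (0.29 ± 0.05, adjusted p = 0.0017). Liver markers were mixed: 3 of 5 tested were called higher, beside 9.06% of all loci, and log2 fold changes ran from -0.576 to 2.626. Ttr, an abundant one, had -0.368. Summed levels overlapped, with 89.8 to 265 CPM in YAP5SA and 57.4 to 134 CPM in wild type. The part of these markers in the Slc38a4 value was not tested.

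Igf2r, the maternally expressed receptor that clears IGF2, had 546, 563, 623 and 604 CPM in the YAP5SA libraries, against 407, 477, 529.5 and 411 CPM in the wild type libraries. The ranges did not overlap, and wild type replicate 3 lay closest to YAP5SA. The log2 fold change of 0.36 ± 0.09 (adjusted p = 0.022) was lost without YAP5SA replicate 3 (0.065), wild type replicate 1 (0.054) or wild type replicate 4 (0.06). Airn, the paternally expressed noncoding RNA that runs antisense through Igf2r, had 0.31 ± 0.08 (adjusted p = 0.021), lost without wild type replicate 1 (0.056), 2 (0.058) or 3 (0.055). Their fragments cannot be told apart without strand.

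The other calls ended when certain libraries were left out. Slc22a3, an organic cation transporter, had 1.12 ± 0.32 (adjusted p = 0.031), lost without YAP5SA replicate 1, 2 or 3 or wild type replicate 1 or 4 (0.059 to 0.075). Zrsr1, a splicing-factor relative inside Commd1, had 0.24 ± 0.07 (0.04), lost with the replicate block (0.067), with DESeq2 (0.063), on the FPKM scale (0.13 to 0.14) and without any 1 library except YAP5SA replicate 1 (0.058 to 0.1). Slc22a18, another transporter gene, had -0.97 ± 0.26 (0.027), lost without YAP5SA replicate 2, 3 or 4 or wild type replicate 1 or 2 (0.068 to 0.08). Nap1l5, a relative of nucleosome assembly proteins, had -0.81 ± 0.25 (0.042), lost without YAP5SA replicate 2, 3 or 4 or wild type replicate 1, 3 or 4 (0.071 to 0.11), and without the filter (0.053).

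A further 12 growth-network genes, which overlap the list of 60, were likewise chosen with earlier results known. Of these, 11 were tested and 2 were higher, Slc38a4 and Igf2r (18.2%, beside 18.9% of all loci). The count was 1 without YAP5SA replicate 3, wild type replicate 1 or wild type replicate 4. None was lower, and the median log2 fold change was -0.06. Cdkn1c, a maternally expressed inhibitor of cyclin-dependent kinases, had 210 ± 17.8 CPM in YAP5SA and 233 ± 8.70 CPM in wild type (-0.15 ± 0.06, adjusted p = 0.13), at 0.763 fragments per base. Gnas, which encodes the stimulatory G protein subunit, had -0.13 ± 0.07 (0.25), Nnat, a small membrane protein gene, -0.13 ± 0.06 (0.19), and Dcn, the proteoglycan decorin, -0.06 ± 0.06 (0.58).

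Markers of gastric mesenchyme, smooth muscle and epithelium were present in every library, as the tissue label has it, and levels of some lists differed between genotypes. Over all tested loci, 9.06% were called higher and 9.85% lower in YAP5SA. Lower lists were smooth muscle (5 of 8 tested lower; 790 to 1013 summed CPM in YAP5SA, 1499 to 1651 in wild type) and stomach mesenchyme (6 of 11; 1738 to 1984 in YAP5SA, 2247 to 2322 in wild type). Gastric epithelium was lower at 9 of 9 (584 to 728 in YAP5SA, 954 to 1122 in wild type), and enteric glia at 6 of 8 (207 to 288 in YAP5SA, 387 to 430 in wild type). Macrophage markers were higher at 7 of 8 (549 to 773 in YAP5SA, 347 to 423 in wild type). Skeletal muscle had 2 of 6 higher (101 to 258 in YAP5SA, 42.9 to 121 in wild type). Its log2 fold changes ran from -0.42 for Actc1, which was not called, to 3.532. Endothelium had 1 of 7 higher (677 to 777 in YAP5SA, 588 to 706 in wild type), or 14.3% called beside 18.9% of all loci. Erythroid cells had 2 of 5 lower (156 to 169 in YAP5SA, 185 to 206 in wild type), and mesothelium 2 of 5 lower (326 to 387 in YAP5SA, 364 to 523 in wild type). Krt19 stands on both the epithelium and the mesothelium lists and was counted as lower in each. Pancreas had 0 of 7 called (154 to 195 in YAP5SA, 86.0 to 409 in wild type), by edgeR's quasi-likelihood test. The summed ranges of skeletal muscle, endothelium, mesothelium and pancreas overlapped between genotypes. No tested marker was at 0 in all libraries. The part of these lists in the values of the imprinted genes was not tested.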

How the data were processed

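Stomach RNA of 4 YAP5SA and 4 wild type libraries was analysed, grouped by the labels. Per the labels' protocols, Trizol was used for RNA and a TruSeq RNA kit for the libraries. TopHat2 2.0.9, Cufflinks 2.2.1 and Cuffdiff with build mm10 are named in the submitters' processing notes, without roles. The handling of duplicates and strand is not stated. The deposited table holds estimated counts of fragments per library, per the file headers (10.4% to 10.9% of values not whole, tolerance 0.001) and the authors' FPKM. Library numbers 0 to 3 in the files were matched to replicates 1 to 4 in number order, which the labels do not state. The authors' group FPKM values equalled the mean of their libraries within 0.01.

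Counts were rounded and tested with edgeR 4.0.16 (R 4.3.3; TMM, filterByExpr with 10 fragments in enough libraries and 15 in total, robust quasi-likelihood, genotype only), two-sided, Benjamini-Hochberg adjusted over 14574 loci, threshold 0.05. The 3582 unnamed loci (1.85% to 1.97% of fragments) were left out. Every adjusted p is from this fit unless named otherwise. DESeq2 1.42.0 and limma 3.58.1 (voom, and log2(FPKM + 1) or log2(FPKM + 0.1)) were alternatives. Same-numbered libraries deviated together (correlations 0.226, 0.145, 0.15 and 0.217), so the number was also fitted as a block. No libraries agreed within counting error. The edgeR step was tested on simulated data.

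Exon lengths came from the GENCODE annotation of mm10, counting only exon bases inside the locus. The FPKM-implied length is mean CPM over mean FPKM. Named were the 9 genes, tested domain neighbours, called imprinted genes, network genes and the nearest gene of each locus. The genes and lists, including 12 cell marker lists, were chosen with earlier results of these data known.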

Additional observations from a re-analysis of the deposited data

Results flagged for a closer look

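Of 76 groups of 4 libraries examined, 4 had a library far from the other 3, and chance alone flags about 1 in 20. The Meg3 locus had 673.6 CPM in YAP5SA replicate 2, against 600.0 to 601.4 CPM in the other YAP5SA libraries. Its FPKM in the same library was 189.8, against 90.8 to 95.95 in the others. Grb10 had 93.08 FPKM in YAP5SA replicate 1, against 104.7 to 106.8 FPKM in the others, and this library is the deepest of the 8. Slc22a3 had 6.366 CPM in YAP5SA replicate 4, against 10.41 to 10.89 CPM in the others.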

How the results depend on the processing

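The 10 loci had 2 calls. There was 1 with RLE factors, no filter on low counts, DESeq2 and the replicate block, and 0 with factors within density bins. There were 0 to 1 when 1 library was left out, and without YAP5SA replicate 1 the call was Peg10, higher. With density by the FPKM-implied length there were 2, Ndn lower and Dlk1 higher. The other imprinted genes had 11 to 18 calls and the growth network 1 to 3 when 1 library was left out. The replicate block ended no call of a named imprinted gene other than Ndn and Zrsr1. The wild type share of fragments was 0.388% over all loci, against 0.396% over named loci. Directions turned for loci whose values were near 0. Plagl1 ran from -0.014 to 0.067 and the Meg3 locus from -0.078 to 0.026 when 1 library was left out, and the Meg3 locus had 0.032 with density by the FPKM-implied length. Mest had 0.0 with RLE factors, 0.009 without the filter, 0.071 with density bins, 0.054 with density by the FPKM-implied length and -0.023 to 0.034 when 1 library was left out. Copg2,Mest had -0.064 with log2(FPKM + 1), -0.066 with log2(FPKM + 0.1) and -0.064 without the filter on low FPKM; the cause was not tested. Of 532 values of 28 followed loci, 434 kept direction and side of the threshold, 77 lost the call, 5 gained one and 16 turned. Of 20 called loci, 8 passed in all 19 alternatives run: Zim1, the main Calcr locus, Slc38a4, Usp29, Impact, Phlda2, Magel2 and Ddc. No ratio passed in any alternative, but these tests had little room to pass. The sign-flip test could not, as 4 pairs allow no p below 0.125. In the exact test over 70 arrangements, 1 ratio alone at the smallest p of 0.029 would not pass after adjustment over 3 ratios. No conclusion is drawn from them. Every YAP5SA library was deeper than every wild type library, which limits what can be said of differences as small as those of H19 and Ndn.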
